A study of Mus musculus with 64 samples.

Results

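Polq, which encodes DNA polymerase theta, and Fbxo40, the gene that starts 21.3 kb from it on the opposite strand, were followed mouse by mouse in striatum and cerebral cortex. They are the 2 rows of the count table with those gene symbols, out of 48795 genes. The pair was chosen by measured values: Polq is the targeted gene, and Fbxo40 had the smallest p of all genes in each of the 4 comparisons between mice labelled Polq+/- and mice with both Polq copies (striatum and cortex, with and without Q140). Differences by the Polq label are therefore given as a description, without a test, and tests are kept for the Q140 allele, sex and tissue.

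RNA came from 32 C57BL/6 mice aged 6 months. The 4 genotypes were heterozygous Q140 knock-in crossed with Polq+/- (Q140 Polq+/-), Polq+/- alone, heterozygous Q140 knock-in alone (Q140), and wild type, with 8 mice each (4 females and 4 males). Each mouse gave 1 library of striatum and 1 of cortex. The Q140 allele carries an expanded CAG repeat in huntingtin and models Huntington's disease, and no mouse without Polq is labelled. The labels do not describe the Polq allele, its design or the source of the flanking chromosome. Libraries held 28.7 to 40.6 M counts (striatum) and 30.9 to 40.1 M counts (cortex).

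Tissue identity was as labelled: the summed level of 10 spiny projection neuron markers lay between 7540 and 14400 CPM in striatum (CPM, a count scaled to the TMM-adjusted library total) against 385 to 466 CPM for cortex, and that of 10 cortical excitatory neuron markers between 138 and 190 CPM in striatum against 2310 to 2600 CPM for cortex. Striatal libraries of 3 mice stood apart: Polq+/- female 3, with 1440 CPM of choroid plexus markers against at most 68.3 CPM in any other striatal library, wild-type male 2, with 268 CPM of cerebellar granule cell markers against at most 33.0 CPM, and wild-type male 3, known as apart from earlier work on these data. Of the 16 mice labelled Polq+/-, 4 had far less Polq than the others (Polq+/- male 3 and Q140 Polq+/- female 3, female 4 and male 3). The labels were kept, and several results that rest on either set are given with and without it.

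Polymerase theta has a helicase-like domain and a polymerase domain. It aligns short matching stretches at broken DNA ends, fills the gaps and so carries out theta-mediated end joining, a repair route that leaves small deletions and insertions. Its expression is usually low outside dividing cells. Fbxo40 is an F-box protein, the substrate-binding part of an SCF ubiquitin ligase built on Skp1, Cul1 and Rbx1. It is known from skeletal and cardiac muscle, where it marks the insulin receptor substrate IRS1 for breakdown.

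On GRCm38, Polq (ENSMUSG00000034206) lies on the plus strand of chromosome 16 from 37011786 to 37095417, and Fbxo40 (ENSMUSG00000047746) on the minus strand from 36963460 to 36990467. The genes point away from each other, with 21319 bases between their starts. No annotated gene overlaps either, and the stretch between them holds 1 processed pseudogene, Gm49605, which was not analysed here. The next genes outward are Hcls1, 248 bases beyond the end of Fbxo40, and Stxbp5l, 19525 bases beyond the end of Polq. Sequences upstream of the RefSeq starts (GRCm38.p6) are shown because the pair is divergent and moved in opposite directions. The Polq stretch is chr16:37011536-37011740, plus strand, and the Fbxo40 stretch, upstream of the first of its 2 starts in the table, is chr16:36990531-36990717, minus strand. Capitals mark the motif CAGCTG, the E-box form bound by muscle helix-loop-helix factors.
Polq: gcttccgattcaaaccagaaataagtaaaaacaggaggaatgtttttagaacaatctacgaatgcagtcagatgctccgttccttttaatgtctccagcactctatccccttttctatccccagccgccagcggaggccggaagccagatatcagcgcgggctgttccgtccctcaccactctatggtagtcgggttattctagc
Fbxo40: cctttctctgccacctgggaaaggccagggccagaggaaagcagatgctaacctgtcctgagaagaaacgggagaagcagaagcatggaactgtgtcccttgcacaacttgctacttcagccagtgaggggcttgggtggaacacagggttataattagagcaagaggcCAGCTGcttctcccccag

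In the 250 bases before the start, the Polq window had 12 CpG dinucleotides and a GC content of 51.6%, against 2 CpG and 56.8% at the first Fbxo40 start; the median promoter of the table had a GC content of 52.4%. Searched on both strands, the letters of the CCAAT box (CCAAT), of the GC box (GGGCGG), of the TATA box (TATAAA), of an E2F-type site (TTTCGCG) and of the E-boxes CAGCTG plus the form CACGTG were not in the Polq window. Only CAGCTG was in the Fbxo40 windows, at positions -81 and -53 from the first start and -89 from the second. Of 32851 promoters of the same length, 13% held CAGCTG. The CCAAT box was in 33.8%, the GC box in 32.7%, the TATA box in 12.4%, the E-box form CACGTG in 6.02% and the E2F-type site in 0.703%. A match is a run of letters and was not tested as a binding site.

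Polq was lower and Fbxo40 many times higher in mice labelled Polq+/-, in both tissues and with or without Q140. Polq in striatum had a lowest, median and highest level of 0.187, 1.81 and 2.36 CPM in Q140 Polq+/- mice, and 0.376, 1.72 and 2.42 CPM in Polq+/- mice. The same levels were 2.24, 3.25 and 3.50 CPM in Q140 mice and 2.46, 3.11 and 4.08 CPM in wild-type mice. The label groups met at their edges: 3 of the 16 mice labelled Polq+/- lay above the lowest mouse with both copies.

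In cortex, Polq had 0.375, 1.21 and 1.93 CPM in Q140 Polq+/- mice and 0.602, 1.27 and 1.38 CPM in Polq+/- mice. It had 1.96, 2.29 and 2.98 CPM in Q140 mice and 1.82, 2.43 and 3.33 CPM in wild-type mice. Only 1 labelled mouse lay above the lowest mouse with both copies there. The order of mean levels was wild type, Q140, Polq+/- and Q140 Polq+/- in both tissues; the first 2 and the last 2 of that order were within 1 SD of each other.

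Fbxo40, which was chosen by these label comparisons, showed no overlap between the labels in either tissue. The share of all genes without such overlap was not counted. In striatum its lowest, median and highest levels were 4.12, 5.03 and 9.29 CPM in Q140 Polq+/- mice, and 3.92, 4.36 and 8.52 CPM in Polq+/- mice. They were 0.273, 0.408 and 0.648 CPM in Q140 mice and 0.163, 0.231 and 0.480 CPM in wild-type mice. The lowest labelled mouse had 6.06 times the level of the highest mouse with both copies.

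In cortex, Fbxo40 had 4.75, 6.20 and 11.8 CPM in Q140 Polq+/- mice and 4.44, 5.09 and 8.92 CPM in Polq+/- mice. It had 0.171, 0.244 and 0.335 CPM in Q140 mice and 0.160, 0.470 and 0.690 CPM in wild-type mice. The order of mean Fbxo40 was Q140 Polq+/-, Polq+/-, Q140 and wild type in striatum, and in cortex the last 2 changed places. The gap between the lowest labelled mouse and the highest mouse with both copies was 6.43-fold. Summed raw Fbxo40 counts over 8 cortical libraries were 2082 in Q140 Polq+/-, 1623 in Polq+/-, 68 in Q140 and 115 in wild type, so the low groups rest on 6 to 26 counts a library. In bulk tissue, more cells with the transcript and more transcript per cell cannot be told apart.

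**Figure D1:**
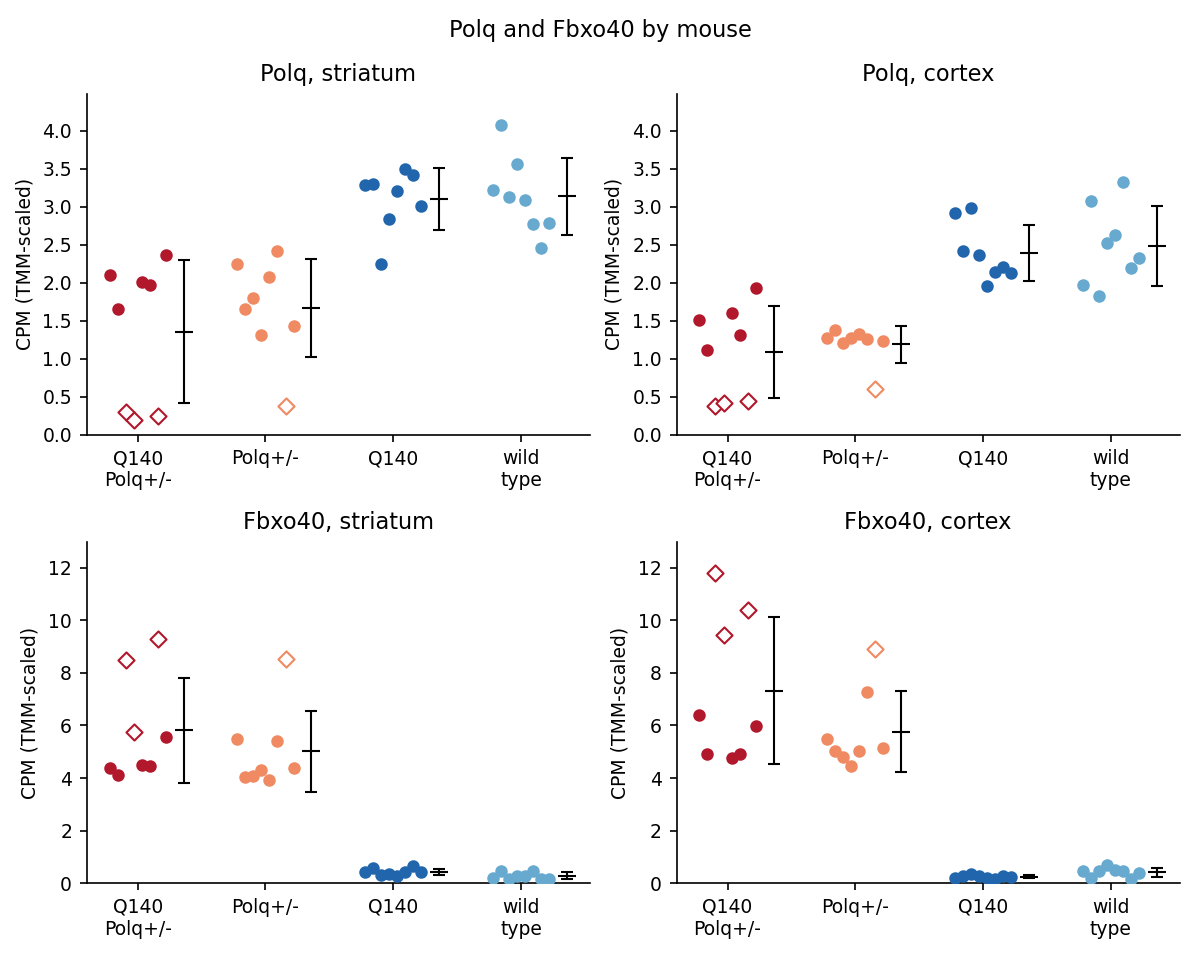
Polq (top) and Fbxo40 (bottom) in CPM for each mouse in striatum (left) and cortex (right); points are mice, open diamonds the 4 mice of lowest Polq, and bars the group mean ± SD (n = 8). The 8 Fbxo40 means lie between 0.243 and 7.33 CPM, with every labelled mouse above every mouse with both copies.

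As fold changes by edgeR, Polq in Q140 Polq+/- against Q140 mice was 0.442 times the level in striatum (log2 -1.18, SE 0.33, 95% interval -1.85 to -0.50) and 0.454 times in cortex (-1.14, SE 0.226). In Polq+/- against wild-type mice it was 0.535 times in striatum (-0.90, SE 0.321, 95% interval -1.56 to -0.24) and 0.480 times in cortex (-1.06, SE 0.223). Fbxo40 in Q140 Polq+/- against Q140 mice was 13.6 times the level in striatum (log2 3.76, SE 0.232) and 29.7 times the level in cortex (4.89, SE 0.284). In Polq+/- against wild-type mice Fbxo40 was 18.0 times the level in striatum (4.17, SE 0.248) and 13.8 times the level in cortex (3.79, SE 0.264). In each of these comparisons 8 of 8 labelled mice lay on the same side of the other group's median. The label difference in striatum minus that in cortex, fitted with the mouse as a block, was -0.36 for Fbxo40 (SE 0.173, 95% interval -0.71 to -0.01), in a comparison where 0.021% of genes passed.

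Per base of transcript, the pair changed places between the labels. On the deposited FPKM scale, which divides by gene length (9685 bases for Polq and 5517 for Fbxo40), striatal Polq averaged 0.143 ± 0.10 in Q140 Polq+/- mice, 0.168 ± 0.066 in Polq+/- mice, 0.327 ± 0.0436 in Q140 mice and 0.317 ± 0.047 in wild-type mice (SD, n = 8 each). Striatal Fbxo40 averaged 1.08 ± 0.362, 0.887 ± 0.274, 0.0781 ± 0.0234 and 0.0486 ± 0.0238 FPKM in the same 4 groups. Fbxo40 thus exceeded Polq in every labelled mouse and lay under it in every mouse with both copies: the ratio of Fbxo40 to Polq FPKM in labelled mice was at least 3.32 (striatum) and at least 5.20 (cortex), against at most 0.333 and 0.480 in mice with both copies.

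The 4 mice of lowest Polq were also the 4 labelled mice of highest Fbxo40, in both tissues. In striatum, Q140 Polq+/- female 3 had 0.299 CPM of Polq and 8.48 CPM of Fbxo40, female 4 had 0.187 and 5.76 CPM, and male 3 had 0.245 and 9.29 CPM. Polq+/- male 3 had 0.376 CPM of Polq and 8.52 CPM of Fbxo40. The other 12 labelled mice lay at 1.31 to 2.42 CPM of Polq and 3.92 to 5.55 CPM of Fbxo40 in striatum.

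In cortex the 4 mice had 0.375, 0.414, 0.447 and 0.602 CPM of Polq and, in the same order of mice, 11.8, 9.44, 10.4 and 8.92 CPM of Fbxo40. The other 12 lay at 1.12 to 1.93 CPM of Polq and 4.44 to 7.28 CPM of Fbxo40. The Fbxo40 ranges of the 4 and the 12 did not overlap in either tissue. Those of Polq did not either, but the 4 mice were picked for their low Polq. The share of all genes without such overlap was not counted. The lowest striatal Polq rested on 6 counts (95% interval for counting error 0.0686 to 0.407 CPM), so Polq reads were present in all 4 mice. The ratio of Fbxo40 to Polq FPKM ran from 39.8 to 66.5 in striatum of the 4 mice, 3.32 to 5.79 in the other 12 and 0.0916 to 0.333 in the 16 mice with both copies; in cortex these ranges were 26.0 to 55.1, 5.20 to 10.1 and 0.114 to 0.480.

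**Figure D2:**
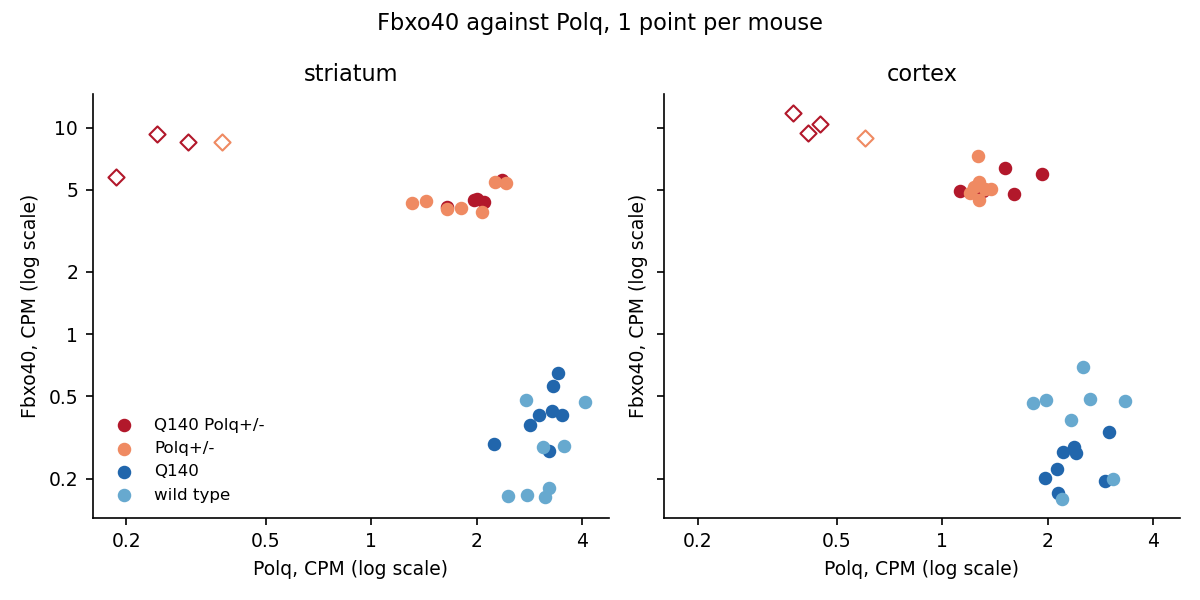
Fbxo40 against Polq in CPM, both on log scales, with 1 point per mouse in striatum (left) and cortex (right); open diamonds are the 4 mice of lowest Polq. In both tissues the mice fall in 3 places: Polq up to 0.376 CPM (striatum) or 0.602 CPM (cortex) with the highest Fbxo40, 12 labelled mice in between, and 16 mice with both copies with Fbxo40 at or under 0.690 CPM.

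Without these 4 mice, both labelled groups still averaged less Polq and more Fbxo40 than the mice with both copies. The log2 fold change of Polq in Q140 Polq+/- against Q140 mice was then -0.62 in striatum (SE 0.14) and -0.68 in cortex (SE 0.143), and in Polq+/- against wild-type mice -0.76 (SE 0.126) and -0.95 (SE 0.131). That of Fbxo40 was 3.42 (SE 0.177) and 4.45 (SE 0.181) in Q140 Polq+/- against Q140 mice, and 4.03 (SE 0.178) and 3.66 (SE 0.157) in Polq+/- against wild-type mice. Without them, Q140 Polq+/- mice averaged more Polq than Polq+/- mice. Striatal Fbxo40 then averaged 4.61 ± 0.551 CPM in Q140 Polq+/- mice (n = 5) and 4.52 ± 0.652 CPM in Polq+/- mice (n = 7), and striatal Polq 2.02 ± 0.255 and 1.85 ± 0.416 CPM. In cortex Fbxo40 averaged 5.40 ± 0.747 and 5.32 ± 0.923 CPM, and Polq 1.49 ± 0.307 and 1.28 ± 0.0591 CPM. The SD of striatal Polq in Q140 Polq+/- mice was 0.939 CPM with all 8 mice, where counting error alone gives 0.193 CPM, and 0.255 CPM without 3 of them.

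Across the 16 mice with both copies, where neither gene was chosen for a difference, Polq and Fbxo40 did not vary together past the threshold. In striatum Pearson's r was 0.398 (permutation p = 0.127; Spearman's rho 0.379, permutation p = 0.147; r without the 2 farthest mice 0.413). In cortex r was 0.0891 (permutation p = 0.739; rho 0.135, permutation p = 0.614; r without the 2 farthest 0.0620). Across the same mice, striatal and cortical levels had r of -0.083 for Polq (permutation p = 0.762; rho -0.0353, permutation p = 0.900; -0.289 without the 2 farthest) and -0.285 for Fbxo40 (permutation p = 0.284; rho -0.224, permutation p = 0.406; -0.287 without the 2 farthest). Adjusted over these 4 relations, the smallest p was 0.508.

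The nearest tested genes did not move with the pair. Hcls1, a signalling adaptor of blood cells, Golgb1, a large Golgi membrane protein, and Stxbp5l, a regulator of vesicle fusion in neurons, had log2 fold changes of 0.07 or less in size in all 4 comparisons. Hcls1, which ends 248 bases from Fbxo40, had -0.02 (SE 0.0856) in striatum and 0.02 (SE 0.0822) in cortex of Polq+/- against wild-type mice. For Golgb1 and Stxbp5l in striatum of the same mice the values were 0.07 (SE 0.042) and 0.07 (SE 0.0794). The antisense transcript 4930565N06Rik and the pseudogene Gm15665 had at most 18 counts over 32 libraries and were not tested, and the pseudogene Gm49567 was not analysed here.

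**Figure D3:**
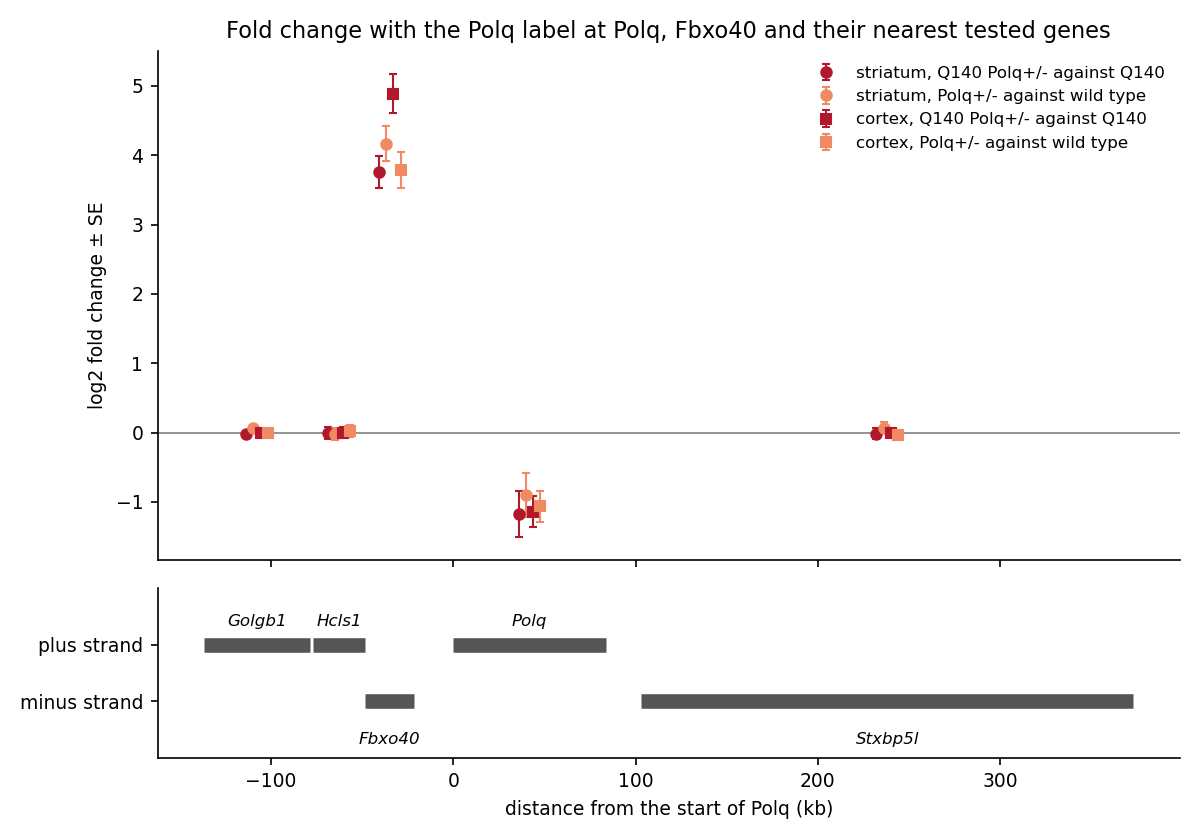
Log2 fold change ± SE with the Polq label (top) over the position of each gene (bottom), in kb from the start of Polq, for the pair and the nearest tested genes; circles are striatum, squares cortex, dark red Q140 Polq+/- against Q140 and orange Polq+/- against wild type, shifted sideways for legibility. Fbxo40 lies between 3.76 and 4.89, Polq between -1.18 and -0.90, and the 3 other genes within 0.07 of 0.

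In Q140 Polq+/- against Q140 mice 10 genes passed an adjusted p under 0.05 in striatum (0.0547% of 18270 tested) and 10 in cortex (0.0552% of 18116). In Polq+/- against wild-type mice 9 passed in striatum (0.0493%) and 8 in cortex (0.0442%). Of these calls, 10, 9, 9 and 8 lay on chromosome 16, which holds 2.92% of the genes tested in striatum and 2.94% in cortex. Without the 3 striatal libraries that stood apart, 4 genes passed in striatum of Polq+/- against wild-type mice, and without the 4 mice of lowest Polq 6 passed in cortex of Q140 Polq+/- against Q140 mice.

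By a fixed measure of likeness, the mean over both tissues of Pearson's r of log2 CPM across 32 libraries, the genes most like Fbxo40 were Cd47, an immune checkpoint ligand (0.904), Mylk, myosin light chain kinase (0.825), Ccdc80, a matrix protein (0.818), the predicted gene Gm7887 (0.784) and the predicted gene Gm6030 (0.563). Those most like Polq were Sema5b, a guidance semaphorin (0.777), Btg3, an antiproliferative factor (0.745), Pcnp (0.706), Slc35a5, a sugar transporter family member (0.700), and Abhd10, a hydrolase (0.547). Polq and Fbxo40 had -0.756 with each other, and other genes were more opposite to each. Most opposite to Polq were Cd47 (-0.83), Mylk (-0.80), Gm7887 (-0.769) and Ccdc80 (-0.764), then Fbxo40. Most opposite to Fbxo40 was Pcnp (-0.816), then Polq, Slc35a5 (-0.749), Sema5b (-0.716) and Cep97 on chromosome 16 (-0.651). Of the 10 genes named as most alike, Gm7887 lies on chromosome 6 and the rest on chromosome 16. They run from 2.27 Mb on one side of Polq (Mylk) to 41.3 Mb on the other (Btg3). These values are set largely by the gap between label groups, and the sets are a description with no test.

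The Q140 allele did not change Polq past the threshold in either tissue. Against wild type, Q140 mice had a log2 fold change of -0.02 in striatum (SE 0.306, 95% interval -0.65 to 0.61, edgeR adjusted p = 0.970) and -0.06 in cortex (SE 0.204, 95% interval -0.47 to 0.36, adjusted p = 0.963). Against Polq+/- mice, Q140 Polq+/- mice had -0.30 in striatum (SE 0.345, adjusted p = 0.572) and -0.14 in cortex (SE 0.246, adjusted p = 0.891). Those 2 values took the opposite sign without the 4 mice of lowest Polq, 0.13 and 0.22. As background, 32.1% of genes passed for Q140 against wild type in striatum and 0.348% in cortex, and for Q140 Polq+/- against Polq+/- mice 31.4% and 0.337%.

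In mice with both Polq copies, where Fbxo40 lies under 1 CPM, its difference with Q140 had opposite signs in the 2 tissues. In striatum, Q140 mice averaged 0.422 ± 0.127 CPM and wild-type mice 0.274 ± 0.134 CPM (SD, n = 8 each), and 8 of 8 Q140 mice lay above the wild-type median. The groups overlapped, since wild-type female 2 and male 2 reached 0.469 and 0.480 CPM, and the difference did not pass (log2 0.63, SE 0.342, edgeR adjusted p = 0.169). Without the 4 mice of lowest Polq, which are in neither group but enter the shared estimate of spread, the same difference passed (0.63, SE 0.23, adjusted p = 0.0355).

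In cortex the order was turned round: Q140 mice averaged 0.243 ± 0.055 CPM and wild-type mice 0.417 ± 0.170 CPM, and 8 of 8 Q140 mice lay below the wild-type median. The groups overlapped here too, since wild-type female 2 had 0.199 CPM, inside the Q140 range, and male 3 0.160 CPM, below it, and the difference did not pass (log2 -0.77, SE 0.447, adjusted p = 0.610; -0.77, SE 0.253, adjusted p = 0.242 without the 4 mice).

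The difference between these 2 effects was tested within mice, a contrast added after the values were seen. In the edgeR fit with the mouse as a block it was 1.39 on the log2 scale (SE 0.317, 95% interval 0.75 to 2.03, adjusted p = 0.00101), in a comparison where 21.1% of 19091 genes passed and 10.3% passed in the same direction. Scaled over all 64 libraries, Fbxo40 was higher in striatum than in cortex in 7 of 8 Q140 mice and in 1 of 8 wild-type mice. The log2 striatum-minus-cortex difference averaged 0.694 ± 0.499 in Q140 mice and -0.631 ± 0.922 in wild-type mice, and its exact two-sided permutation p was 0.00544 over 12870 arrangements. Without the 3 striatal libraries that stood apart the edgeR value was 1.59 (SE 0.349, adjusted p = 0.000615). Without the mouse block it was 1.39 and did not pass (SE 0.563, adjusted p = 0.0792).

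In mice labelled Polq+/-, where Fbxo40 is high, the Q140 effect did not differ between tissues past the threshold. Fbxo40 was lower in striatum than in cortex in all 8 Q140 Polq+/- mice and all 8 Polq+/- mice, with means of -0.359 ± 0.235 and -0.253 ± 0.160 on the log2 scale. The Q140 effect in striatum minus that in cortex was -0.11 there (SE 0.126, 95% interval -0.37 to 0.14, adjusted p = 0.606; exact permutation p = 0.307), in a comparison where 19.3% of genes passed. Fbxo40 in Q140 Polq+/- against Polq+/- mice gave 0.22 in striatum (SE 0.172, adjusted p = 0.371) and 0.34 in cortex (SE 0.179, adjusted p = 0.522). Most of the 4 mice of lowest Polq, which have the highest Fbxo40, are Q140 Polq+/- mice. Without the 4, Fbxo40 averaged 4.61 (n = 5) and 4.52 CPM (n = 7) in striatum of these groups, and 5.40 and 5.32 CPM in cortex. The same imbalance enters the next comparison. The Q140 effect in labelled mice minus that in mice with both copies passed for neither gene in either tissue; for Fbxo40 it was -0.41 in striatum (SE 0.381, adjusted p = 0.996) and 1.11 in cortex (SE 0.482, adjusted p = 0.990, unadjusted p = 0.0289). In that comparison edgeR called 0 genes in either tissue (0% of those tested; DESeq2 also 0), with 893 and 863 at an unadjusted p under 0.05.

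**Figure D4:**
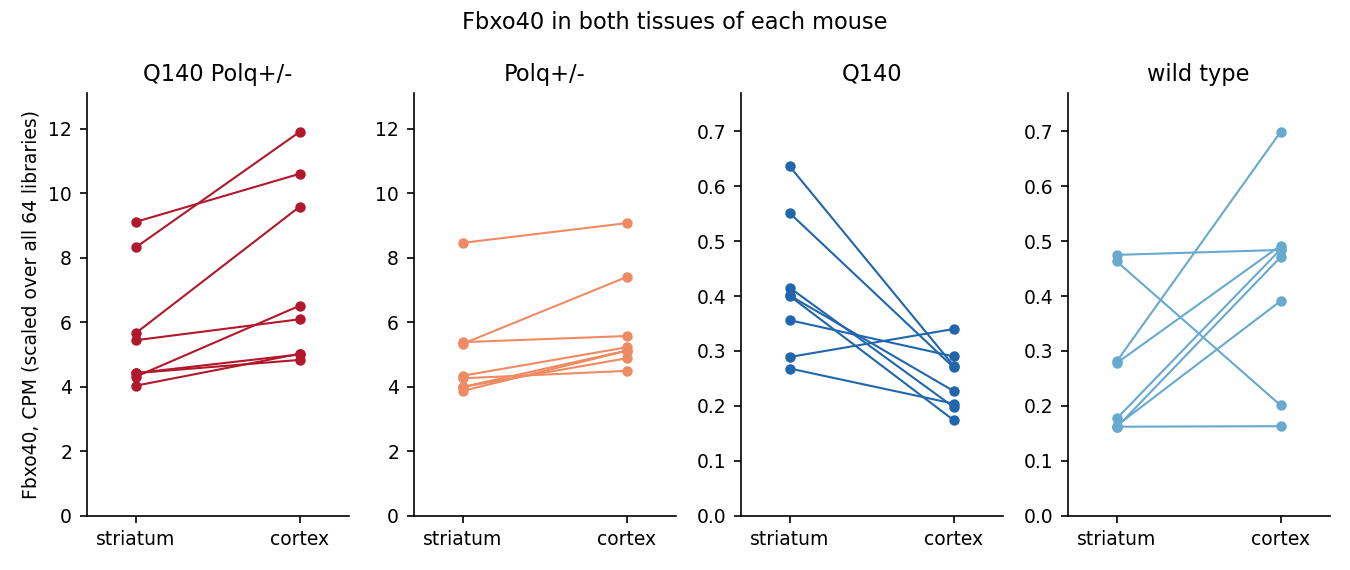
Fbxo40 in CPM in striatum and cortex of each mouse, with a line joining both tissues of a mouse; the axes of the 2 labelled genotypes on the left and of the other 2 genotypes differ in scale. Lines fall towards cortex in 7 of 8 Q140 mice and climb in all labelled mice.

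Polq differed between tissues, at 1.24 times the level in striatum against cortex (log2 0.31, SE 0.0689, edgeR adjusted p = 6.42e-05), in a comparison where 87.6% of genes passed and 44.7% passed in that direction. It was higher in striatum in 5 of 8 Q140 Polq+/- mice and in 7 of 8 mice of each other genotype. Fbxo40 over all genotypes did not pass (log2 -0.13, SE 0.0872, adjusted p = 0.156). Striatal wells lie in plate columns 01 to 04 and cortical wells in columns 05 to 08, so tissue and plate column cannot be told apart. Females and males did not differ past the threshold: for Polq the log2 difference was -0.05 (SE 0.229, adjusted p = 0.978) in striatum and -0.02 (SE 0.157, adjusted p = 0.976) in cortex, and for Fbxo40 -0.16 (SE 0.154, adjusted p = 0.825) and 0.01 (SE 0.165, adjusted p = 0.988). As background, 0.367% of genes passed in striatum and 1.15% in cortex.

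**Figure D5:**
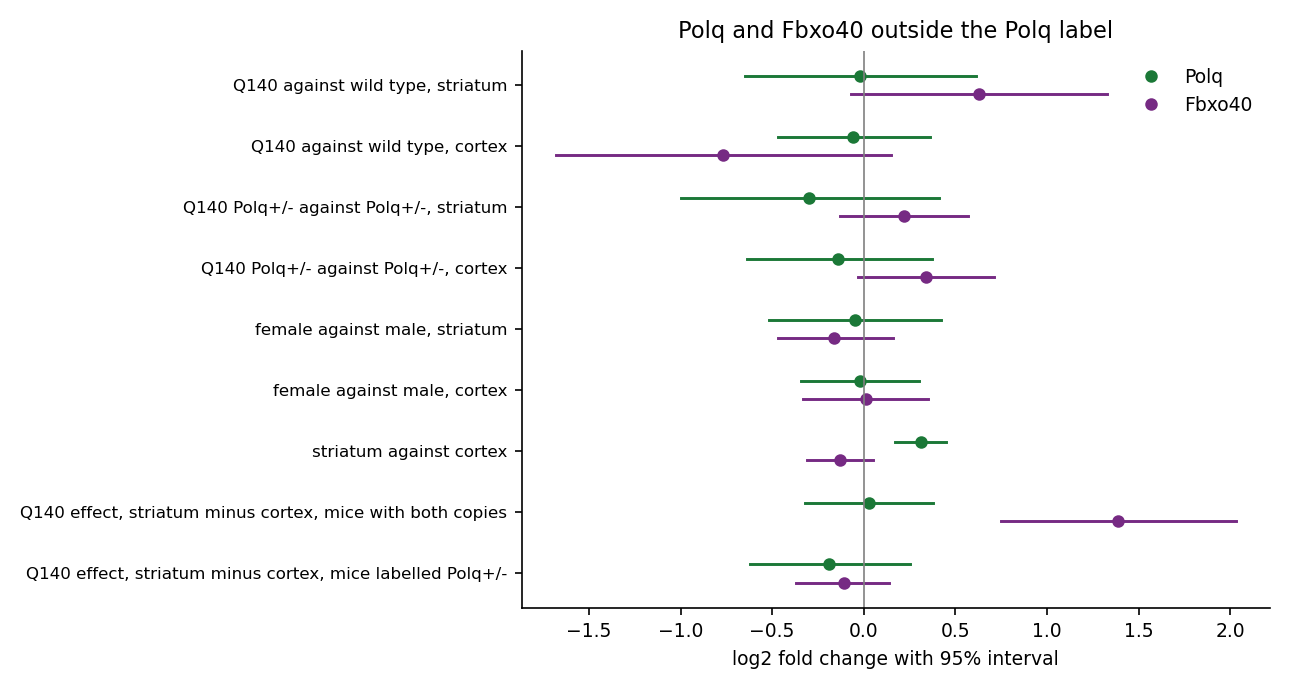
Log2 fold changes with 95% intervals of Polq (green) and Fbxo40 (purple) in the comparisons that do not use the Polq label. Of the intervals plotted, the Fbxo40 one for the Q140 effect in striatum minus cortex in mice with both copies, 0.75 to 2.03, and the Polq one for striatum against cortex, 0.17 to 0.45, lie away from 0.

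Partners of both genes were read from fixed lists in the comparisons by the Polq label. Tested were 20 genes of theta-mediated end joining, 12 of 16 genes of classical end joining and 15 of 16 genes of homologous recombination. So were 15 other DNA polymerases, 3 SCF core genes, 33 F-box genes other than Fbxo40 (32 in cortex) and 12 genes of insulin and IGF signalling. None of them passed edgeR's adjusted test in either direction in any of the 4 comparisons. Over all genes 0.0442% to 0.0552% passed there, so 0 calls among so few genes says little. At an unadjusted p under 0.05 stood 4 of their 108 tested genes in striatum and 8 of 107 in cortex (Q140 Polq+/- against Q140), and 5 in each tissue for Polq+/- against wild type; over all genes these shares ran from 3.34% to 6.27%. Insulin receptor substrate Irs1 in cortex of Polq+/- against wild-type mice had a log2 fold change of 0.04 (SE 0.042, edgeR adjusted p = 0.999). The SCF core genes in striatum of Polq+/- against wild-type mice had -0.04 (Skp1a, SE 0.0358), 0.01 (Cul1, SE 0.0228) and -0.01 (Rbx1, SE 0.0362). The summed level of the 20 theta-mediated end joining genes in striatum had medians of 412 CPM in Q140 Polq+/-, 404 CPM in Polq+/-, 411 CPM in Q140 and 408 CPM in wild-type mice.

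With Q140, members of the same lists passed in striatum. In cortex 0 did by edgeR's adjusted test, but few genes of any kind passed there. Over all genes these were 0.348% for Q140 against wild type and 0.337% for Q140 Polq+/- against Polq+/-. At an unadjusted p under 0.05 stood 10 of 107 in each cortical Q140 comparison (9.35%). That is near the share over all genes, 9.77% and 10.4%. In Q140 against wild-type striatum, 7 of 20 theta-mediated end joining genes rose and 5 fell, with a median log2 fold change of 0.0102 beside 0.00183 over all genes. Rbbp8, which encodes the end-resection factor CtIP, rose by 0.60 (SE 0.0811, adjusted p = 2.26e-07), and Rad50, of the MRE11 complex, by 0.20 (SE 0.0452, adjusted p = 0.00071). The nuclease subunit Ercc1 fell by 0.16 (SE 0.0433, adjusted p = 0.00324), and its partner Ercc4 rose by 0.10. Of 12 classical end joining genes 5 rose and 0 fell, among them the DNA-dependent kinase Prkdc (0.38, SE 0.045, adjusted p = 1.95e-08), the Ku subunit Xrcc5 (0.36, SE 0.0507, adjusted p = 6.21e-07) and Rif1 (0.26). Those 3 also rose in Q140 Polq+/- against Polq+/- mice (0.36, 0.31 and 0.13). Over all genes tested, 16.9% rose and 15.2% fell in Q140 against wild-type striatum (3095 and 2774 genes). That balance depended on the scaling: on log2(FPKM + 0.1), which scales to the library total, limma called 5349 genes higher and 1813 lower in Q140 against wild type, and 5539 and 1763 in Q140 Polq+/- against Polq+/- mice (edgeR on counts, 2943 and 2798). On that scale 9 theta-mediated end joining genes rose and 2 fell in Q140 against wild type, and classical end joining still had 5 and 0. Over all genes 29.3% rose and 9.92% fell there. Without the 3 striatal libraries that stood apart, edgeR called 5 and 5 of the theta-mediated genes and 3 and 0 of the classical ones. Over all genes 17.4% rose and 15.9% fell in that fit.

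Of 15 homologous recombination genes 7 rose and 2 fell in Q140 against wild-type striatum, among them Xrcc2 (0.28), Rpa1 (0.11) and Brca1 (0.24) upward and Rad52 (-0.17) downward. For this and the next edgeR counts, the share over all genes was 16.9% upward and 15.2% downward. Among other polymerases, Pole, the catalytic subunit of polymerase epsilon, and Poll, polymerase lambda, rose (0.60 and 0.13) and 0 fell. Of 33 F-box genes 7 rose and 2 fell, among them Fbxo34 (0.34), Fbxo44 (0.21) and Fbxo28 (0.26) upward and Fbxo2, which binds glycosylated proteins in brain, downward (-0.22). On log2(FPKM + 0.1) 14 F-box genes rose and 2 fell, beside 29.3% and 9.92% of all genes, and Rad52 did not pass (-0.10, limma adjusted p = 0.0855). Without the 3 striatal libraries Brca1 (0.19, edgeR adjusted p = 0.0565) and Poll (0.13, adjusted p = 0.0664) did not pass. None of Skp1a, Cul1 and Rbx1 passed in the edgeR fit to all libraries. Of 12 insulin and IGF signalling genes 3 rose and 2 fell: Irs1 (0.31, SE 0.0933, adjusted p = 0.00919) and the regulatory kinase subunit Pik3r1 (0.18) were among those that rose, and the kinase Akt2 (-0.41) and the transcription factor Foxo1 (-0.39) were those that fell.

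Markers of skeletal muscle, where Fbxo40 is best known, were read from a fixed list. The summed level of 17 such genes in striatum was 133 to 250 CPM in the 4 mice of lowest Polq, 125 to 299 CPM in the other 12 labelled mice and 124 to 319 CPM in mice with both copies; in cortex the ranges were 115 to 119, 111 to 129 and 113 to 132 CPM. Medians in the same order were 143, 263 and 169 CPM in striatum, and 117, 118 and 118 CPM in cortex. Most of the summed level came from Ryr1, Pygm and Fbxo32, which were present in every library. The fast myosin Myh4 had 0 counts in 18 of 32 striatal libraries, the creatine kinase Ckm in 15 and the troponin Tnnc2 in 17. In cortex Myh4 had at least 0.454 CPM in every library, and the muscle actin Acta1 at least 7.70 CPM. Of the muscle markers tested, 7 in striatum and 10 in cortex, none passed in any label comparison. Over all genes 0.0442% to 0.0552% passed in these comparisons, so 0 calls among so few markers says little. With Q140, striatal Ryr1 fell by 1.64 on the log2 scale against wild type (SE 0.0942, adjusted p = 3.24e-14). Most of the 4 mice of lowest Polq carry Q140, so low Polq and Q140 are mixed in their striatal sums. Genes of dividing cells, where Polq is usually highest, summed to 91.1 to 96.4 CPM in striatum of the 4 mice of lowest Polq. The sums were 77.8 to 107 CPM in the other 12 and 85.0 to 109 CPM in mice with both copies. None of 20 tested in striatum and 17 in cortex passed edgeR's adjusted test in any label comparison or with Q140. With Q140, 32.1% and 31.4% of all genes passed in striatum, and 0.348% and 0.337% in cortex. In Q140 Polq+/- against Polq+/- striatum, 1 of these genes fell with DESeq2 size factors, beside 15.9% of all genes. Without the 3 striatal libraries that stood apart 1 fell, beside 16.5%. On log2(FPKM + 0.1) 2 rose there, beside 30.3%.

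The 8 further lists were of spiny neurons, cortical neurons, choroid plexus, cerebellar granule cells, microglia, oligodendrocytes, astrocytes and endothelium. Of their members 0 passed edgeR's adjusted test in the 4 comparisons by the Polq label. Over all genes 0.0442% to 0.0552% passed there, so this 0 says little. At an unadjusted p under 0.05 stood 1 of 70 in striatum (1.43%, beside 3.34% of all genes) and 3 of 71 in cortex (4.23%, beside 6.27%) for Q140 Polq+/- against Q140. For Polq+/- against wild type these were 13 of 70 in striatum (18.6%, beside 5.06% of all genes) and 10 of 71 in cortex (14.1%, beside 4.64%). That striatal comparison holds Polq+/- female 3 and wild-type male 2, set apart by choroid plexus and cerebellar granule cell markers. In it the choroid plexus marker Ttr had a log2 fold change of 4.85 (SE 1.27) and the granule cell marker Cbln3 -4.68 (SE 1.26). The striatal count is not given without either library. In Q140 against wild-type striatum 9 of 10 spiny neuron markers fell, with a median log2 fold change of -0.656, along with 8 of 10 endothelial, 7 of 10 microglial, 4 of 10 oligodendrocyte, 1 of 10 astrocyte and 2 of 4 tested cerebellar granule cell markers, beside the 15.2% of all genes that fell. Of the cortical neuron markers 3 of 8 rose, beside 16.9% of all genes, while Fbxo40 did not pass and had 0.63. In Q140 Polq+/- against Polq+/- striatum, where 15.3% of all genes fell, 9 of 10 spiny neuron, 6 of 10 endothelial and 0 of 10 microglial markers did. On log2(FPKM + 0.1) limma still had 9 of 10 spiny neuron markers lower in both comparisons, but endothelial markers lower numbered 5 in Q140 against wild type and 1 in Q140 Polq+/- against Polq+/-, and microglial ones 3 and 0. On that scale 9.92% and 9.65% of all genes were lower in these comparisons. With the 3 striatal libraries left out, 0 cerebellar granule cell markers fell in Q140 against wild type, beside 15.9% of all genes. These other fits of the lists were chosen after the data were seen. Their part in the Fbxo40 values was not tested.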

How the data were processed

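Striatal and cortical RNA of 32 mice was made into 64 libraries with a stranded TruSeq kit, per the labels' protocols. STAR 2.7.5c, SAMtools 1.10 and HTSeq 0.12.3 on GRCm38 (mm10) are named in the submitters' processing notes, and no source used here gives the strand setting. Deposited by the authors were unnormalized counts per gene and FPKM values; tested on the files, the deposited FPKM were counts divided by gene length and library total (median relative spread 1.4e-10).

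Counts were fitted with edgeR 4.0.16 in R 4.3.3 (robust quasi-likelihood, TMM, default filter by genotype, sex as covariate, all 32 libraries of a tissue in 1 fit), leaving 18270 genes in striatum and 18116 in cortex, or 19091 over both with the mouse as a block. Calls are at a Benjamini-Hochberg adjusted p under 0.05 over the genes tested in a comparison. Intervals are 95% and cover the fit's spread, and those on a single library's CPM cover counting error only. DESeq2 1.42.0 and limma 3.58.1 were alternatives, with log2(FPKM + 0.1) and log2(FPKM + 1). The edgeR fits, within a tissue and with the mouse as a block, were tested on simulated counts. Replicate numbers did not pair mice across genotypes.

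Members, 17 gene lists, alternatives and the naming rule were chosen with earlier results of these data known. The rule named the pair in every comparison, the 3 nearest annotated genes on each side, the 5 genes most and least alike among genes of mean CPM of at least 1, and up to 4 members of a list with the smallest p; Ryr1 is among these, and the muscle genes named for their level or zeros were chosen after their values were seen. Positions came from GENCODE M21 (GRCm38), which held 48435 of the gene IDs, and promoters from RefSeq (both members matched by symbol).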

Additional observations from a re-analysis of the deposited data

Results flagged for a closer look

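In 16 groups of 8 libraries (both genes, 4 genotypes, 2 tissues), 2 libraries lay apart from the rest of their group. Chance alone flags about 1 in 20 independent groups, but these groups share mice, so that rate is only a rough guide. Both came from 1 mouse, Polq+/- male 3, already known as 1 of the 4 mice of lowest Polq. Its cortical Polq was 0.602 CPM, the lowest of 8, and its striatal Fbxo40 was 8.52 CPM, the highest of 8. The others of the 4, Q140 Polq+/- female 3, female 4 and male 3, share a group and were not flagged. A gap beside 1 library does not single out libraries that lie low together.

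In a contrast added after the values were seen, the Q140 effect on Fbxo40 differed between tissues, by 1.39 on the log2 scale (striatum minus cortex, SE 0.317, edgeR adjusted p = 0.00101) in mice with both Polq copies and by 0.64 (SE 0.17, adjusted p = 0.00299) over all mice, a comparison in which 32.1% of genes passed. In mice labelled Polq+/- it was -0.11 (SE 0.126, adjusted p = 0.606), and the value over all mice is the mean of these 2 effects. In mice with both copies, 7 of 8 Q140 mice and 1 of 8 wild-type mice had more Fbxo40 in striatum than in cortex, at 6 to 26 counts a library.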

How the results depend on the processing

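The label differences of both genes kept their direction under every alternative run and every library left out, and the striatal excess of Polq kept its direction and its call under the 4 alternatives run for it. Fits to log2 FPKM gave smaller label differences for low-valued genes. With a pseudocount of 0.1, Fbxo40 was 2.68 and 2.71 in striatum and 3.25 and 2.69 in cortex (Q140 Polq+/- against Q140, then Polq+/- against wild type), and cortical Polq -0.67 in Polq+/- against wild type. With a pseudocount of 1, Fbxo40 was 0.93, 0.84, 1.13 and 0.91, and Polq -0.22, -0.17, -0.17 and -0.16, in the same order.

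Differences near 0 changed sign. Polq in Q140 against wild type was 0.25 in striatum and 0.20 in cortex with the plate column as a factor, and 0.035 and 0.011 in striatum on log2 FPKM with pseudocounts of 0.1 and 1. Without the 4 mice of lowest Polq, Polq in Q140 Polq+/- against Polq+/- was 0.13 in striatum and 0.22 in cortex, and its Q140 effect in labelled minus other mice 0.14 and 0.27; the Fbxo40 label difference in cortex of Q140 Polq+/- against Q140 was 4.45, and Fbxo40 in Q140 against wild-type striatum passed at an unchanged 0.63. On log2 FPKM (pseudocount 1) the striatal Fbxo40 Q140 effect in labelled minus other mice was 0.093. For females against males, Polq was 0.023 in striatum and 0.012 in cortex with limma voom, and without the 4 mice cortical Polq was 0.015 and Fbxo40 -0.007. The added tissue difference of the Q140 effect on Fbxo40 did not pass without the mouse block, at 1.39 in mice with both copies and 0.62 over all mice; for Polq in mice with both copies it was -0.10 without the 3 libraries apart. Causes of these changes were not tested.

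Leaving out each library in turn, the values that crossed 0 ranged from -0.069 to 0.047 (striatum) and -0.11 to 0.012 (cortex) for Polq in Q140 against wild type, from -0.24 to 0.054 for its cortical Q140 effect in labelled minus other mice, from -0.12 to 0.026 (striatum) and -0.067 to 0.037 (cortex) for Polq in females against males, and from -0.11 to 0.11 for cortical Fbxo40 in females against males. None of these passed.

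Counts of called genes moved with several alternatives. DESeq2 gave 16 in cortex of Q140 Polq+/- against Q140 (10 with edgeR), 156 in cortex of Q140 against wild type (63), 167 in cortex of Q140 Polq+/- against Polq+/- (61), and for females against males 121 in striatum (67) and 397 in cortex (209). With the plate column, cortex had 25 and 35 for the 2 Q140 comparisons. Without the 4 mice, cortex had 6 for Q140 Polq+/- against Q140, 14 for Q140 Polq+/- against Polq+/- and 109 for sex. Cortex of Q140 Polq+/- against Polq+/- had 34 with only the groups compared, and 33 and 31 on log2 FPKM with pseudocounts of 0.1 and 1. Without the 3 striatal libraries, 4 passed in striatum of Polq+/- against wild type.

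Same-numbered mice of different genotypes were not paired (median r of their deviations 0.0194 in striatum and 0.0269 in cortex over 48 pairs). With the replicate number as a block, striatal Fbxo40 was 3.75 in Q140 Polq+/- against Q140 and 0.61 in Q140 against wild type (adjusted p = 0.112), and no call of either gene changed. Depth limits Fbxo40 in mice with both copies, at 6 to 26 counts a library.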

Other observations

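The tissue order of Polq was turned round in the 4 mice of lowest Polq, a pattern noticed after the values were seen. Scaled over all 64 libraries, Q140 Polq+/- female 3 had 0.293 CPM in striatum and 0.380 CPM in cortex, female 4 had 0.184 and 0.421 CPM, and male 3 had 0.241 and 0.455 CPM. Polq+/- male 3 had 0.373 CPM in striatum and 0.611 CPM in cortex. Among the other mice, Q140 female 3 (2.19 and 3.03 CPM) and wild-type male 2 (2.75 and 3.39 CPM) had the same order. The remaining mice had more Polq in striatum, though Polq+/- female 4 was all but equal, at 1.29 CPM in both tissues. No test was made.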
